A study of Mus musculus with 6 samples.

Results

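Adipocyte markers were followed in whole pancreas of mice lacking Rkip-1 and of wild-type mice. The list held 10 genes, and its members were all probe sets that the platform annotation gives to exactly 1 of these genes. That rule found 17 probe sets of 8 genes, out of 18193 genes with such a probe set in the table. The 8 genes were Adipoq, Car3, Fabp4, Retn, Cidec, Lpl, Cd36 and Pparg. Cfd and Plin1 had no probe set under this rule and were not analysed here. The study compared 3 Rkip-1 knockout mice (KO) with 3 wild-type mice (WT), all 8 weeks old, from 1 colony on a C57BL/6 background, with total RNA of the whole organ on 1 Affymetrix array per sample. The title of the series names the role of Rkip-1, a Raf kinase inhibitor protein, in beta cell proliferation. The labels number the samples within each genotype as biological replicates. They name no sex, no batch and no deleted exon, and no cell type was isolated or gated.

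White adipocytes store triglyceride in a single large droplet and release hormones into the blood. Their differentiation is driven by the nuclear receptor encoded by Pparg together with C/EBP factors, which switch on genes for fatty acid uptake, lipid storage and secreted adipokines. The mouse pancreas is a soft, lobed organ that lies in mesenteric fat, and fat cells between its lobules or at its edge are taken along when the organ is dissected. RNA from whole pancreas comes mostly from acinar cells. In such bulk RNA, fewer adipocytes and less marker RNA per adipocyte cannot be told apart.

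The markers varied widely among mice and did not separate the genotypes. The library of KO replicate 1 had almost no signal at the brightest probe set of Car3 and at that of Adipoq, while KO replicates 2 and 3 lay within the range of the WT mice for both genes. Of the 8 genes, 7 were lowest in KO replicate 1 by their brightest probe set, against 17.2% of all genes, and 5 were highest in WT replicate 2, against 15.8% of all genes. By limma 0 of the 8 genes and 0 of the 17 probe sets differed between genotypes at an adjusted p under 0.05, where 0.132% of genes and 0.0977% of probe sets over the whole table did. At an unadjusted p under 0.05, 1 of the 8 genes and 2 of the 17 probe sets were lower in KO and none was higher, against 5.58% of genes and 4.66% of probe sets lower in KO overall. All levels below are RMA values on the log2 scale, on which the middle of each array lay between 2.97 and 3.02 and the upper quartile over all values was 4.54. No probe set has a detection call, so a value near or below the middle of its array is read as an upper bound of the level, and a difference from it as a lower bound in size.

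**Figure D1:**
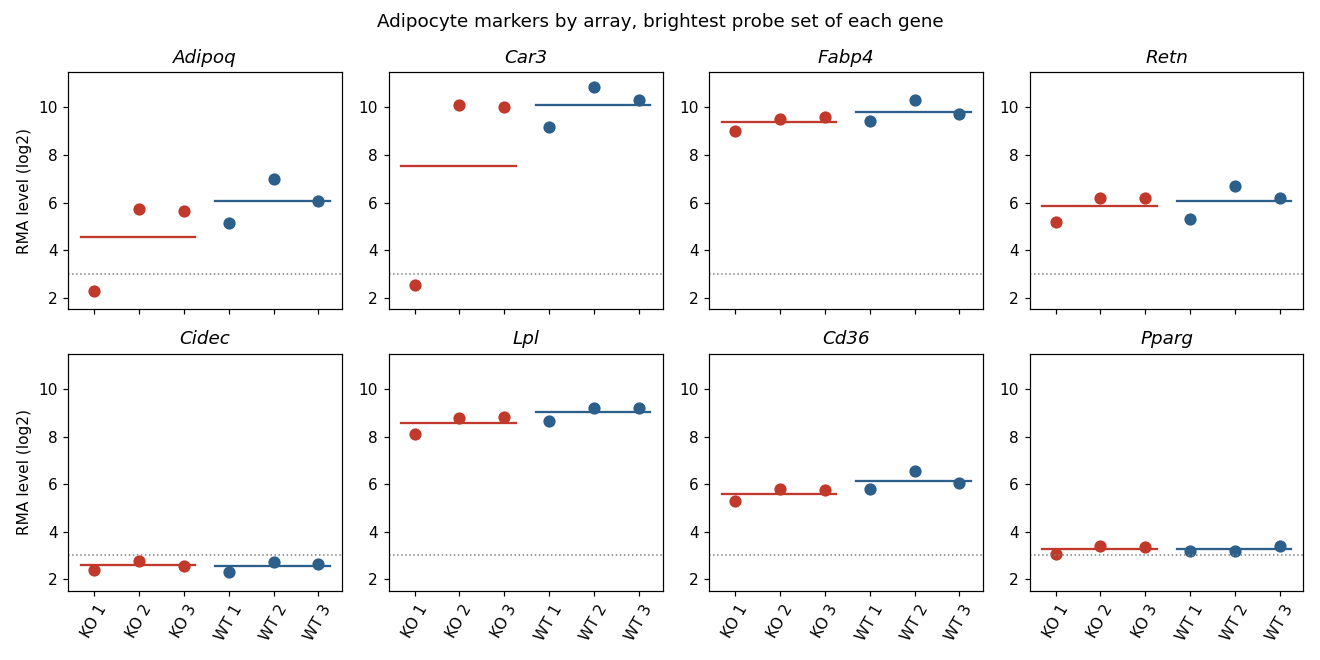
RMA level (log2) of the brightest probe set of each of the 8 adipocyte markers on each array. Points are single mice (red KO, blue WT), horizontal lines are group means (n = 3 each) and the dotted line is the mean of the array medians. Car3 and Adipoq fall below the dotted line in KO 1 alone, at 2.51 and 2.26, and Cidec and Pparg lie close to it in every mouse.

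The promoters of the members that were clearly expressed and had an entry in the RefSeq promoter table are shown as context for markers that moved together across mice. The table held 7 of the 10 genes, and of the 6 genes with a probe set above the upper quartile it held Adipoq, Retn and Cd36. Each sequence gives the 250 bases before the annotated start in GRCm38.p6, 5′ to 3′ on the strand of the gene. Capitals mark CCAAT or its reverse complement ATTGG, the box bound by the general factor NF-Y. The windows were chr16:23146286-23146535 on the plus strand for Adipoq, chr8:3655520-3655769 on the plus strand for Retn and chr5:17835897-17836146 on the minus strand for Cd36.
Adipoq: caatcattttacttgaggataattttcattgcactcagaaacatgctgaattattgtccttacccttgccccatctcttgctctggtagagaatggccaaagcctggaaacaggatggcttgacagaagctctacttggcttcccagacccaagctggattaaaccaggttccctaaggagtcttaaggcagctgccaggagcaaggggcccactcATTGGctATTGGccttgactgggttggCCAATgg
Retn: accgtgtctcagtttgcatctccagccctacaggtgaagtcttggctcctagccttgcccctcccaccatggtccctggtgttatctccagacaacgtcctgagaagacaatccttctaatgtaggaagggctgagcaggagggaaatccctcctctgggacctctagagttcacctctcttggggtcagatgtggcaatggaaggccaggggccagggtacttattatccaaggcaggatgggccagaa
Cd36: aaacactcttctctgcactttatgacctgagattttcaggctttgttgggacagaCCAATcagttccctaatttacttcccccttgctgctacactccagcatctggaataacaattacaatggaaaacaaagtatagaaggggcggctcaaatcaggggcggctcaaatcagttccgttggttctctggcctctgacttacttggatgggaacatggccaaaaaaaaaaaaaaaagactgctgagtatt

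The window of Adipoq held 3 CCAAT boxes, which began 34, 27 and 7 bases before the start, the first pair on the minus strand. That of Cd36 held 1, which began 195 bases before the start, and that of Retn held 0. Over both strands, 33.8% of the 32851 promoters of the table had at least 1 CCAAT box in the same 250 bases. A match to a loose C/EBP consensus, TTNNGNAA on either strand, was found 1 time for Adipoq, 1 time for Cd36 and 0 times for Retn, and 36.8% of promoters had one. The nuclear receptor motif AGGTCA was found 1 time for Cd36 and 0 times for Adipoq and Retn, against 14% of promoters. None of these matches overlapped a match of another motif. They describe the letters of the windows and were not tested against binding.

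Adipoq, Retn and Cfd encode proteins that fat cells secrete, and Adipoq and Retn were measured. Adipoq encodes adiponectin, a hormone made almost solely by adipocytes. Its single probe set measured 2.26, 5.73 and 5.65 in KO replicates 1, 2 and 3, and 5.12, 6.99 and 6.06 in WT replicates 1, 2 and 3. KO replicate 1 lay 2.87 below the next lowest mouse and below the middle of its own array, and the other KO mice lay inside the WT range. The difference of KO minus WT was -1.51 on the log2 scale (95% interval -3.36 to 0.34, limma adjusted p 0.655), from means of 4.55 ± 1.98 and 6.06 ± 0.93 (SD, n = 3 each). Without KO replicate 1 it was -0.37 (-1.32 to 0.59, limma adjusted p 0.885).

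Retn encodes resistin, an adipokine that mouse adipocytes release. It measured 5.16, 6.17 and 6.21 in the KO mice and 5.30, 6.69 and 6.18 in the WT mice. KO replicate 1 and WT replicate 1 were close to each other, 0.14 apart, and below the other 4 mice. The genotype difference was -0.21 (SE 0.35, limma adjusted p 0.909), and it turned to 0.13 without KO replicate 1 and to 0.11 without WT replicate 2. For Retn, then, KO replicate 1 did not stand apart from every WT mouse as it did for Adipoq.

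Car3 encodes a cytosolic carbonic anhydrase that is among the most abundant proteins of rodent white fat and is also made in muscle and liver. Its brightest probe set gave the widest range of any member. It measured 2.51 in KO replicate 1 against 10.09 and 10.01 in KO replicates 2 and 3, and 9.19, 10.86 and 10.30 in the WT mice. The gap from KO replicate 1 to the next lowest mouse was 6.68 on the log2 scale, a 103-fold difference in signal. Since 2.51 lies below the middle of that array, this gap is a lower bound in size for this probe set only. KO minus WT was -2.58 (95% interval -6.31 to 1.14, limma adjusted p 0.716) and -0.07 without KO replicate 1 (-0.94 to 0.80, limma adjusted p 0.98). A second probe set repeated the order of the mice exactly at lower levels, from 4.09 in KO replicate 1 and 5.36 in WT replicate 1 to 7.27 in WT replicate 2. There KO replicate 1 lay above the middle of its array, and its gap to the next lowest mouse was 1.28, a 2.43-fold difference in signal. The bright probe sets thus gave no common size for the Car3 gap. The 2 further probe sets of Car3 were dim, with ranges of 0.57 and 0.47 over the 6 arrays, and did not show the wide gap.

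Fabp4, Lpl and Cd36 serve the handling of fatty acids, and macrophages express them as well as adipocytes. Capillary endothelium also expresses Fabp4 and Cd36. Lpl encodes lipoprotein lipase, which frees fatty acids from circulating triglyceride at the capillary wall. It measured 8.10, 8.80 and 8.82 in the KO mice and 8.67, 9.21 and 9.22 in the WT mice, with a difference of -0.46 (95% interval -0.93 to 0.01, limma adjusted p 0.583). KO replicate 1 was again lowest, by 0.58, and WT replicate 1 lay below the other KO mice. A second Lpl probe set differed by -0.52 (SE 0.21), with an unadjusted limma p of 0.0376 and an adjusted p of 0.54. Without KO replicate 1 these differences were -0.22 and -0.27.

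Cd36 encodes a scavenger receptor that takes up long-chain fatty acids. Its brightest probe set measured 5.29, 5.79 and 5.75 in the KO mice and 5.81, 6.56 and 6.06 in the WT mice. This was the 1 probe set of the 17 whose groups did not overlap, by a margin between KO replicate 2 and WT replicate 1 that is small beside the spread within either group. Over all probe sets, 6.51% had KO wholly below WT. The difference was -0.53 (95% interval -0.97 to -0.10, unadjusted limma p 0.0214, adjusted p 0.479) and -0.37 without KO replicate 1 (-0.81 to 0.06). A second Cd36 probe set differed by -0.52 (limma adjusted p 0.594), with its lowest value in KO replicate 3. The third was dim on all arrays, with a range of 0.08.

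Fabp4 encodes the fatty acid binding protein of the adipocyte cytosol. It measured 9.03, 9.51 and 9.61 in the KO mice and 9.42, 10.33 and 9.72 in the WT mice. The order of the mice was close to that of Car3, but the gap below WT replicate 1 was only 0.40. The difference was -0.44 (95% interval -0.95 to 0.06, limma adjusted p 0.626) and -0.26 without KO replicate 1. A second bright probe set differed by -0.34, and the 2 dim ones by 0.14 and 0.18, each with its highest value in a KO mouse.

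Cidec, which encodes a protein that makes lipid droplets fuse and grow, and Pparg gave signals too low to separate the mice. Cidec lay at 2.78 or below and Pparg between 3.08 and 3.42 over the 6 arrays. Their genotype differences were 0.04 (95% interval -0.27 to 0.34, limma adjusted p 0.963) and 0.02 (-0.24 to 0.28, limma adjusted p 0.981). Each was measured by 1 probe set, so a change in these genes may have gone undetected on these arrays.

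**Figure D2:**
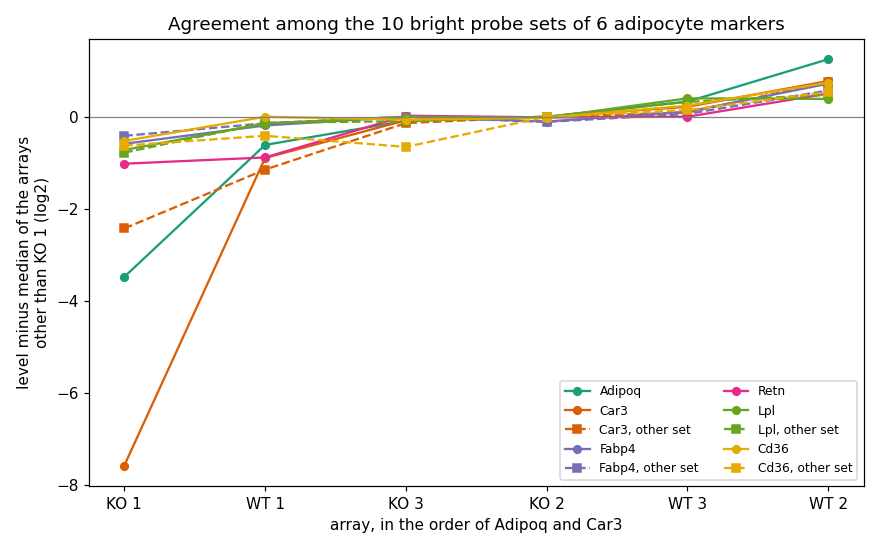
Level of each of the 10 probe sets above the upper quartile (6 genes) minus its median over the 5 arrays other than KO 1, on the log2 scale, with arrays on the horizontal axis in the order of Adipoq and Car3. Solid lines with circles are the brightest probe set of a gene and dashed lines with squares a further one. Most lines run upwards from KO 1 to WT 2, but the depth of the drop in KO 1 differs widely, from 7.58 for the brightest Car3 probe set to 0.42 for the second Fabp4 probe set.

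The bright members largely shared an order of the mice, while the sizes of the differences varied between them. Of the 17 probe sets, 10 had a mean above the upper quartile, and they came from 6 genes. Among these 10, KO replicate 1 was lowest in 9, WT replicate 2 was highest in 9, and WT replicate 1 was second lowest after KO replicate 1 in 8. WT replicate 1 was the lowest WT mouse in all 10. The full order KO 1, WT 1, KO 3, KO 2, WT 3, WT 2 was shared by 4 of the 10, which were Adipoq, both bright Car3 probe sets and the second Lpl probe set. KO replicates 2 and 3 differed by 0.02 to 0.66 in the 10 probe sets, and WT replicate 2 exceeded WT replicate 1 by 0.54 to 1.90. Probe sets of 1 gene share their transcript and the 6 arrays are the same mice, so these counts describe agreement and are no test.

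Summed over the brightest probe sets of the 8 genes on the linear scale, the signal was 895 in KO replicate 1, 2462.8 and 2462.5 in KO replicates 2 and 3, and 1825, 4086 and 2929 in the WT mice. Outside KO replicate 1, Car3 and Fabp4 carry most of this sum. KO replicates 2 and 3 lay between WT replicate 1 and WT replicate 3, and the spread among the WT mice alone was more than the distance of those KO mice from WT replicate 3. Xist, the RNA that silences an X chromosome in female cells, was low in KO replicate 1, WT replicate 1 and WT replicate 2 (4.44 or below) and high in the other mice (9.09 to 9.79). The mice with low Xist included both the lowest and the highest adipocyte signal. With the Xist level as a covariate the difference of Car3 went from -2.58 to -4.12, that of Adipoq from -1.51 to -2.18 and that of Retn from -0.21 to -0.44. KO replicate 1 was the only KO mouse with low Xist, so among low-Xist mice this fit set it alone against WT replicates 1 and 2. Its differences therefore lean on that mouse and cannot be read as a genotype effect freed of sex. In that fit 4 of the 8 genes (Car3, Adipoq, Lpl and Cd36) were lower in KO at an unadjusted limma p under 0.05, against 5.08% of all genes, and 0 passed at an adjusted p under 0.05, the lowest being 0.403 for Lpl.

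**Figure D3:**
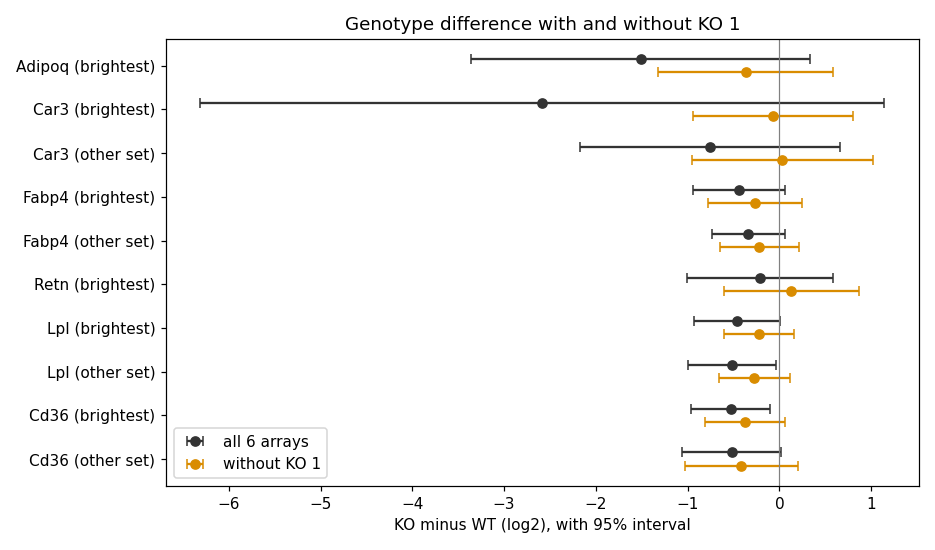
KO minus WT difference (log2, horizontal axis) with 95% intervals for the 10 probe sets above the upper quartile, fitted with all 6 arrays (black) and without KO 1 (orange). The interval of the brightest Car3 probe set runs from -6.31 to 1.14 with all arrays and from -0.94 to 0.80 without KO 1, and all 10 intervals without KO 1 include 0.

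Leaving out KO replicate 1 moved the genotype differences unequally. That of Car3 went from -2.58 to -0.07, while that of Cd36 went from -0.53 to -0.37 and that of Fabp4 from -0.44 to -0.26. The median of the 8 differences was -0.45 with all arrays and -0.15 without KO replicate 1, beside a median over all genes that rounds to 0 in both fits (-0.00056 and -0.00032). It was -0.26 without WT replicate 2 and -0.64 without WT replicate 1. Without KO replicate 1, 8 of the 10 bright probe sets were still lower in KO, and 0 of them had an unadjusted limma p under 0.05, against 7.72% of all probe sets in that fit. The knockout itself was present in KO replicate 1 as in the others, with Pebp1, the gene of Rkip-1, at 5.89, 6.50 and 5.71 in the KO mice and 9.81 to 10.01 in WT.

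A wider list of 32 adipocyte genes gave the same picture in part. Of its 28 measured genes, 0 differed between genotypes by limma at an adjusted p under 0.05, and 3 were lower in KO at an unadjusted p under 0.05, namely Dgat2, Mest and Cav2, where 5.58% of all genes were. In all, 15 of the 28 were lower in KO and 13 higher. The median difference was -0.01, and 11 of 28 genes (39.3%) were lowest in KO replicate 1. Thrsp, which promotes lipid synthesis in fat and liver, followed Car3 most closely. It measured 3.16, 6.39 and 6.36 in the KO mice and 5.75, 7.09 and 6.48 in the WT mice, and its difference was -1.13 with all arrays (limma adjusted p 0.719) and -0.06 without KO replicate 1. Dgat2, which makes triglyceride from diacylglycerol, measured 3.67, 4.89 and 4.65 in KO and 4.80, 5.60 and 5.17 in WT, with a difference of -0.79 (unadjusted limma p 0.0244, adjusted p 0.495). Mest differed by -0.35, Cav2 by -0.34, Apoc1 by -0.23, the glycerol 3-phosphate dehydrogenase Gpd1 by -0.18, Klf15 by -0.15 and the insulin-responsive glucose transporter Slc2a4 by 0.21. Some adipocyte genes gave little signal. Lep (leptin) lay between 2.58 and 2.72, the hormone-sensitive lipase Lipe between 2.88 and 3.20 and the droplet coat gene Plin4 between 3.87 and 4.16, below the upper quartile in every mouse, and these 3 were picked with their values in view.

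By a fixed rule of likeness, 10 genes outside the list with a mean of at least 5 were named. Likeness was measured by the root mean square difference between a gene's centred values and the mean centred profile of the members over the 6 arrays, among 6049 candidates. In KO replicate 1 that mean profile was -1.55, while the median of the centred members was -0.65. The mean there leans on Car3 and Adipoq, so the named genes are like this mean rather than a typical member. From the closest, they were Me1, H2-Aa, Wfdc17, Ifi27l2a, Ctss, Lyz2, Scd1, Igfbp4, Cyp4v3 and Lyz1, with distances of 0.28 to 0.37 against a median of 0.74 for all candidates. Me1 encodes malic enzyme, which supplies NADPH for fatty acid synthesis, and ran from 5.11 in KO replicate 1 and 5.62 in WT replicate 1 to 6.99 in WT replicate 2. Scd1, which desaturates fatty acids, ran from 6.08 in KO replicate 1 to 9.43 in WT replicate 2, in the same order as Car3. H2-Aa (MHC class II), the protease gene Ctss and the lysozyme genes Lyz2 and Lyz1 are known from myeloid and antigen-presenting cells. Lyz2 measured 6.57 in KO replicate 1 and between 7.63 and 8.10 in the other mice. Lyz1 and Lyz2 are close copies whose probe sets may share transcripts.

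**Figure D4:**
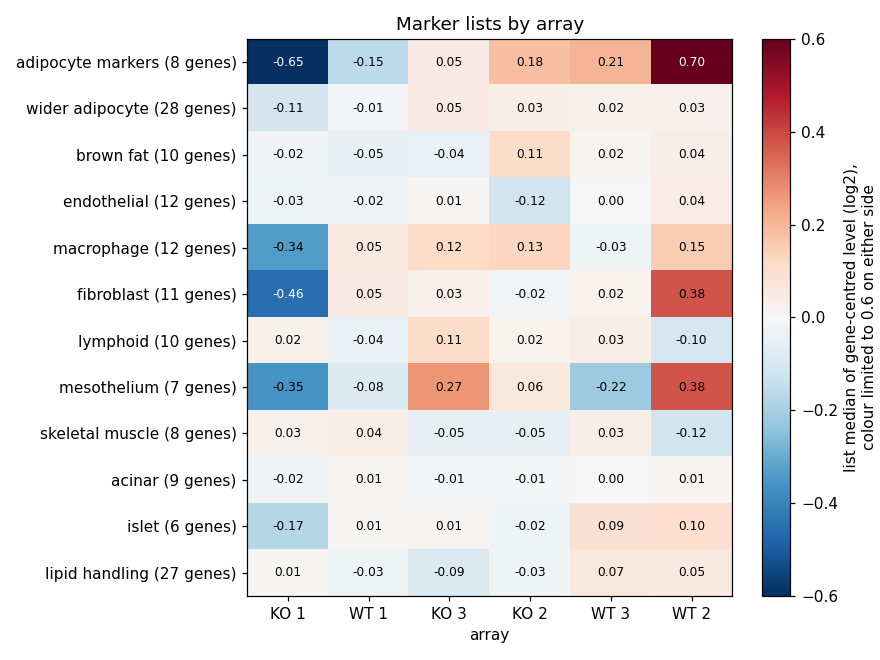
Median over the genes of each marker list of the gene-centred level (log2), by array, for the adipocyte markers and 11 other lists, with the number of measured genes in brackets and the colour limited to 0.6 on either side. The adipocyte markers run from -0.65 in KO 1 to 0.70 in WT 2. The fibroblast list has its lowest and highest values in the same 2 arrays (-0.46 and 0.38). So do the mesothelium (-0.35 and 0.38), macrophage (-0.34 and 0.15), islet (-0.17 and 0.10) and acinar lists (-0.02 and 0.01).

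Lists for other cells were set beside the adipocyte signal across mice. Of 11 fibroblast genes, 9 were lowest in KO replicate 1 and 9 were highest in WT replicate 2, and their summed linear signal was 3206 to 4560 in KO and 4667 to 6093 in WT. All 11 were lower in KO on average, against 50.2% of all genes, and 0 passed by limma, against 0.132%, with 5 at an unadjusted p under 0.05, against 5.58% of all genes lower in KO. With KO replicate 1 left out, the median difference of the list went from -0.32 to -0.17. Col1a1 stayed at -0.61 and Postn went from -0.82 to -0.59. Col3a1 went from -0.50 to -0.34, Pi16 from -0.43 to -0.21 and Col1a2 from -0.43 to -0.32. Dcn went from -0.19 to 0.03 and Mfap5 from -0.25 to 0.02. These last genes, picked with their values in view, were the only ones of the list higher in KO in that fit. Of 12 macrophage genes, 7 were lowest in KO replicate 1, and their summed signal was 447 in that mouse, up to 795 in the other KO mice and 660 to 831 in WT. Their median difference was -0.18 with all arrays and 0.01 without KO replicate 1. By limma 0 passed, against 0.132% of all genes, and 2 were lower in KO at an unadjusted p under 0.05, against 5.58%. Of 7 mesothelial genes, which mark the lining of the peritoneal surface, 5 were lowest in KO replicate 1. Upk3b among them, picked with its values in view, measured 3.70 there and 4.80 to 5.75 elsewhere. Upk1b, of the same list, rose in KO by 0.99 (limma adjusted p 0.0167), and its order of mice was unlike that of the fat genes, with 6.41 in KO replicate 1 and 5.55 in WT replicate 1. Upk1b was no longer past the threshold with any of 4 arrays left out, at a limma adjusted p of 0.077 for KO 1, 0.076 for KO 2, 0.131 for WT 2 and 0.0636 for WT 3, though its difference stayed between 0.90 and 1.00 in these fits. With the Xist level as a covariate the difference was 1.02 (adjusted p 0.0608), and for the mean of its probe sets it was 0.46 (adjusted p 0.156). The part of these cell types in the adipocyte differences was not tested.

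The remaining lists were compared in the same way. Of 12 endothelial genes, 1 was lowest in KO replicate 1, and their summed signal was 375 to 397 in KO and 403 to 411 in WT. Brown fat markers were dim, with Ucp1, picked as the defining gene, between 2.22 and 2.49, and 3 of 10 were lowest in KO replicate 1. Skeletal muscle markers, of a tissue that also makes Car3, had 0 of 8 genes lowest in that mouse and 0 of 8 above the upper quartile. Lymphoid markers had 2 of 10 lowest there and 0 above the upper quartile. Of 9 acinar genes, 6 were lowest in KO replicate 1, but 6 of the 9 lay above 14 on every array, near the upper limit of the RMA values, so that a shift could not be read. Below that range, the acinar transcription factor gene Ptf1a measured 9.11 in KO replicate 1 and 9.59 to 10.50 in the other mice. Islet genes had 5 of 6 lowest in that mouse. Over all 6, its level minus the median of the other mice had a median of -0.18. In these 6 lists 0 genes passed by limma, against 0.132% of all genes. Of all 18193 genes, 1016 (5.58%) were lower in KO and 828 higher at an unadjusted limma p under 0.05. In the lists there were, at that level, 2 of 12 endothelial genes, Cldn5 and Tek, both lower in KO, and 1 of 10 brown fat genes (Ppargc1a, lower). There were 0 of 8 muscle genes, 1 of 10 lymphoid genes (Cd3e, higher) and 1 of 9 acinar genes (Ptf1a, lower). Of the 6 islet genes, 1 was lower (Ppy) and 1 higher (Pdx1).

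Regulators and partners of lipid handling were mostly outside the adipocyte pattern. Of 27 measured genes in this list, 1 fell in KO and 0 rose by limma at an adjusted p under 0.05, where 0.132% of all genes were called. At an unadjusted limma p under 0.05, 4 were lower and 1 higher, against 5.58% of all genes lower and 828 of 18193 higher. G0s2, an inhibitor of the lipase that begins triglyceride breakdown and abundant in fat, was the gene that fell. It measured 3.43, 3.88 and 4.29 in the KO mice and 6.43, 6.38 and 5.27 in the WT mice, a difference of -2.16 (95% interval -2.84 to -1.48, limma adjusted p 0.0473). All 3 KO mice lay below all 3 WT mice, and WT replicate 1, which had the least Adipoq and Car3 of the WT mice, had the most G0s2. Its limma adjusted p was above the threshold without KO replicate 1 (0.136), KO replicate 2 (0.198), KO replicate 3 (0.0764), WT replicate 1 (0.167) or WT replicate 2 (0.284), while the difference kept between -2.54 and -1.94 with any 1 array left out. It was also lost with dim probe sets left out (0.0531), with a replicate block (0.0848), with the intensity trend (0.0975), with the Xist covariate (0.148) and with gene means (0.0646). The lipogenic regulator Srebf1 measured -0.54 and the early adipogenic factor Cebpd 0.35, with unadjusted limma p of 0.00685 and 0.00547 and adjusted p of 0.375 and 0.351. Of the 27 genes, 6 were lowest in KO replicate 1, or 22.2%, near the share over all genes.

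Few features of the whole table set any mouse as far apart as Car3 and Adipoq did. In KO replicate 1, 9 probe sets lay at least 2 log2 units below every other array, and on each of the other 5 arrays 0 did. Above every other array by that margin were 2 probe sets in KO replicate 2, 2 in WT replicate 2 and 0 elsewhere. Of the 9 low ones, 5 have 1 gene symbol, and they belong to Car3, Adipoq, Thrsp and, with 2 probe sets, Ighm, the immunoglobulin mu chain of B cells. Ighm measured 3.26 in KO replicate 1 at one of its probe sets, 5.60 in WT replicate 1 and 8.32 in WT replicate 2, so that its lowest and highest mice were those of the fat genes. The other 4 have no single symbol in the annotation used. The one with the widest gap among these measured 2.76 in KO replicate 1, 6.73 in WT replicate 1 and 8.53 in WT replicate 2, and is not assigned to a gene here. These probe sets were picked with their values in view.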

How the data were processed

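Values were the deposited log2 RMA levels of 45101 probe sets on 6 arrays, made by the authors with RMA from affy, per the submitters' processing notes. Its version is not given in the sources used here. RMA equalises the arrays' distributions, so shifts shared by most genes cannot be seen. After removal of 64 control probe sets, 45037 were tested as KO minus WT in R 4.3.3 with limma 3.58.1 (lmFit, then eBayes), two-sided, adjusted by Benjamini and Hochberg over all of them, with 9.53 degrees of freedom. The platform annotation gave 34958 probe sets 1 symbol, 932 several and 9211 none; 34754 symbols were updated by Entrez identifier through RefSeq (GRCm38.p6). A gene is its brightest single-symbol probe set. Groups come from sample titles. The number of arrays limits the precision. The p-values set each difference against the spread between these samples, which eBayes moderates with the spread of all probe sets. The code was tested on simulated data.

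The members and lists were chosen with earlier results of these data known. Named genes were all members, Pebp1, members of other lists past the threshold or with the largest differences, and the 10 genes of most similar profile. Genes outside this rule were Lep, Lipe, Plin4, Upk3b, Ucp1, Dcn, Mfap5 and Ighm, picked with their values in view. Alternatives were other normalizations, filters, variance models, arrays left out, a replicate block, Xist as a covariate and other choices of probe set. Figures were drawn with matplotlib 3.10.9.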

Additional observations from a re-analysis of the deposited data

How the results depend on the processing

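No adipocyte marker passed the threshold under any alternative that was run: the counts stayed at 0 for the 8 genes, the 17 probe sets (or those kept) and the wider list, in limma fits throughout, also at an adjusted p under 0.1. The median difference over the members ran from -0.64 (without WT replicate 1) to -0.15 (without KO replicate 1) with an array left out. Car3 went from -2.58 to -0.86, Fabp4 from -0.44 to -0.12, Cd36 from -0.53 to -0.35 and the median to -0.28 when all probe sets of each gene were averaged, which averages in the dim probe sets. Of 126 values of single genes under alternatives, 114 kept their sign and 12 changed it, all in Fabp4, Retn, Cidec and Pparg. Fabp4 changed to 0.14 with suffix-marked probe sets left out, which leaves only its dim ones. With arrays left out, Retn ran from -0.59 to 0.13, Cidec from -0.091 to 0.13 and Pparg from -0.048 to 0.12. With Xist as a covariate, the 6 bright genes were lower in KO by more than without it (Car3 -4.12, Adipoq -2.18, Lpl -0.65, Cd36 -0.60, Fabp4 -0.51, Retn -0.44), Cidec was -0.035 and Pparg -0.087. That fit leans on KO replicate 1, the only KO mouse with low Xist. With equal array medians Pparg was -0.0022. Over the whole table the count of 44 called probe sets ran from 16 to 41 with an array left out, and was 25 without suffix-marked probe sets, 24 with 1 probe set per gene, 22 with the Xist covariate and 76 at an adjusted p under 0.1. Same-numbered KO and WT arrays deviated together with correlations of 0.19, -0.03 and -0.08, and differently numbered ones with -0.16 to 0.18. With 3 arrays per group these values cannot decide whether the numbers pair the mice. With the replicate block, 33 probe sets and 0 members were called, and the limma adjusted p of Lpl was 0.25 and of Cd36 0.251. The unadjusted limma p in that fit was 0.00153 for Lpl, 0.00155 for Cd36, 0.00288 for Adipoq, 0.0122 for Fabp4 and 0.0322 for Car3. These genes were lower in KO, and Retn, Cidec and Pparg had an unadjusted limma p of 0.126 or more. The share over all genes in that fit is not given here. Signals near the array medians limit Cidec, Pparg, Lep and Lipe.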
